A study of Danio rerio with 20 samples.

Results

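The fatty acid binding protein (fabp) family was followed in bulk liver RNA-seq of 20 adult male zebrafish. Members were the identifiers whose symbol starts with fabp, which gave 12 of the 32520 identifiers in the count tables. The gene name table gives the symbol FABP1 to both ENSDARG00000059227 and ENSDARG00000019357, and FABP7 to both ENSDARG00000007697 and ENSDARG00000034650. The zebrafish names fabp1a, fabp1b.1, fabp7a and fabp7b could not be assigned within these pairs, so these 4 genes are given with their identifiers. The other members were fabp1b.2, fabp2, fabp3, fabp4a (also named fabp11a), fabp4b (also named fabp11b), fabp6, fabp10a and fabp10b. In the RefSeq gene table fabp1b.1 and fabp1b.2 are direct neighbours.

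The transgenes named in the labels of these fish are driven by the promoter of a family member, fabp10a, which is active in hepatocytes. CreLox zebrafish, Tg(fabp10a-CreERT2;fabp10a-flox-beta-catenin), carry a Cre recombinase activated by tamoxifen and a floxed, activated beta-catenin. They were treated with 10 µM 4-hydroxytamoxifen (TAM) from 3 to 6 days post fertilization (dpf) and sampled at 11 months post fertilization (mpf), 4 with hepatocellular carcinoma (HCC) and 2 without. Cre control zebrafish (n = 4, 11 mpf) carried Tg(fabp10a-CreERT2) alone and received 0.1% ethanol. HepABC zebrafish with HCC (n = 5, 6 mpf) carried Tg(fabp10a-pt-beta-catenin), and their non-transgenic wild-type controls (n = 5, 6 mpf) were also untreated. In the CreLox comparisons TAM exposure and the floxed transgene cannot be told apart. Between the experiments, age, treatment, transgene and experiment cannot be told apart. Each library is a different fish.

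Fatty acid binding proteins are small cytosolic proteins with a barrel-shaped pocket that carry fatty acids, bile acids and related lipids between membranes, enzymes and nuclear receptors. Members are named after the tissue in which each was first known. In mammals FABP1 is the main form in hepatocytes and is also made by enterocytes, FABP2 is the intestinal form, FABP3 the heart and muscle form, FABP4 the adipocyte form, FABP6 the ileal bile acid carrier and FABP7 the brain form. Fish livers also use fabp10a, a bile acid-binding form that mammals lack and that serves as a standard hepatocyte marker in zebrafish.

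Libraries held 20903187 to 37994885 assigned counts, and the family took 0.785% to 2.34% of them. Levels are given as CPM, the counts of a gene divided by the scaled total of its library, within each experiment. Markers of 20 hepatocyte genes summed to 135977 to 336127 CPM in the 3 CreLox experiment groups and the non-transgenic controls, and to 38742 to 74112 CPM in HepABC HCC. Of these 20 genes, 18 fell in HepABC HCC and 2 fell in CreLox HCC. In bulk livers, fewer hepatocytes and less RNA per hepatocyte cannot be told apart. The enterocyte genes vil1, cdx1b and slc15a1 stood out in 2 non-transgenic controls, fish 317C5 and 317C2. The vil1 count was 1904 in 317C5, 542 in 317C2, 218 in the HepABC fish 317E5, 120 in the HepABC fish 317E6 and at most 22 in each of the other 16 fish. The whole list of 25 enterocyte identifiers summed to 627 to 1555 CPM in Cre controls, 1083 to 2199.8 in CreLox HCC, 1412 and 1570.2 without HCC, 1560.03 to 3701 in non-transgenic controls and 683 to 1342 in HepABC HCC, mostly from 2 apolipoprotein genes, apoa4b.1 and apoa4b.2. By that sum 317C2 was the lowest of the non-transgenic controls. Without these 2 genes, a split made after seeing the values, the sum was 2094 CPM in 317C5, 615 in 317C2, 330.2 in 317E10, 218 in 317E6, 158 in 317E5 and 39.5 to 77.8 in the other 15 fish. Of the 25 identifiers 16 were highest in 317C5. In the HepABC experiment, values without 317C2 and 317C5 are given for fabp1, fabp1b.2, fabp2, fabp3 and fabp10a. Values without 317C2, 317C5, 317E5 and 317E6 are given for fabp1, fabp1b.2 and fabp10b, a setting in which 3 members were called instead of 5. Fish 317E10 was in neither set left out.

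Of the 12 members, 9 had enough counts to be tested within both experiments. In CreLox HCC against Cre control 1 of these 9 members rose and none fell, where 4.2% of all 16837 genes tested were called (adjusted p under 0.05, edgeR quasi-likelihood test). In CreLox zebrafish without HCC against Cre control the same gene, fabp1 (ENSDARG00000059227), was the 1 member that rose, against 0.315% of all genes. Between CreLox zebrafish with and without HCC 0 of 9 members were called by edgeR, 0 had an unadjusted p under 0.05, 0 were called by DESeq2 or limma voom, and 0.00594% of all genes were called. In HepABC HCC against non-transgenic control 2 members rose and 3 fell, where 33.7% of all 15864 genes tested were called. The difference between the HepABC HCC and CreLox HCC changes, tested in a fit of all 20 libraries, was called for 3 of 10 members, against 11.3% of all genes.

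**Figure D1:**
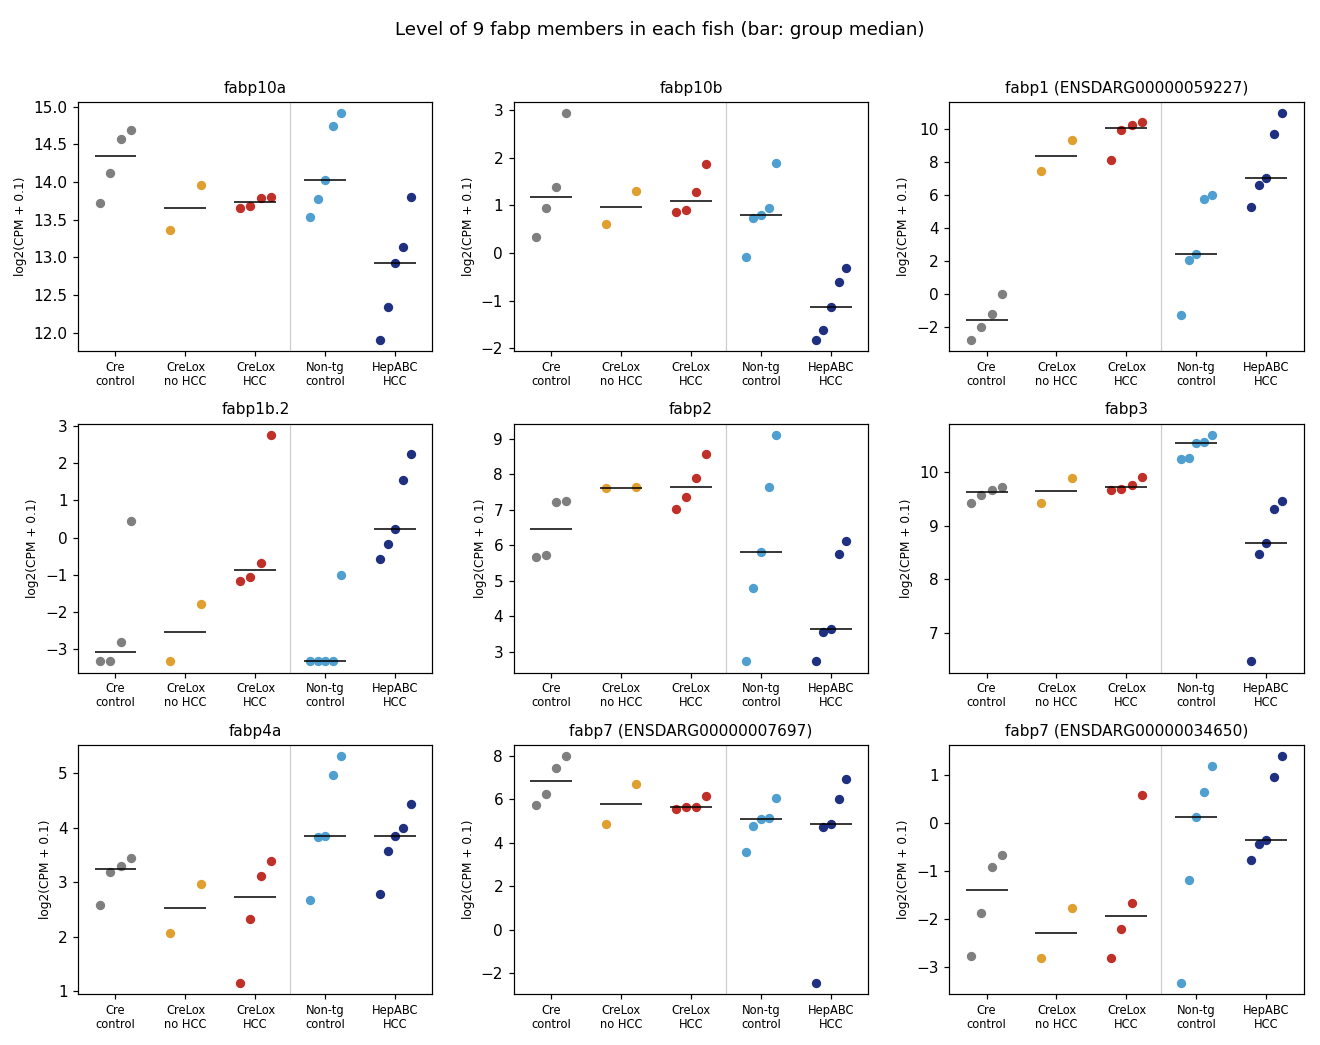
Each panel gives 1 member, with log2(CPM + 0.1) on the y axis, the 5 groups on the x axis, a point for each fish and a bar at the group median. The panel of fabp1 (ENSDARG00000059227) shows the Cre controls between 0.0433 and 0.875 CPM and every CreLox fish at 169.8 CPM or above, while the panel of fabp3 shows the HepABC HCC fish at 706 CPM or below and their controls at 1204 CPM or above.

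**Figure D2:**
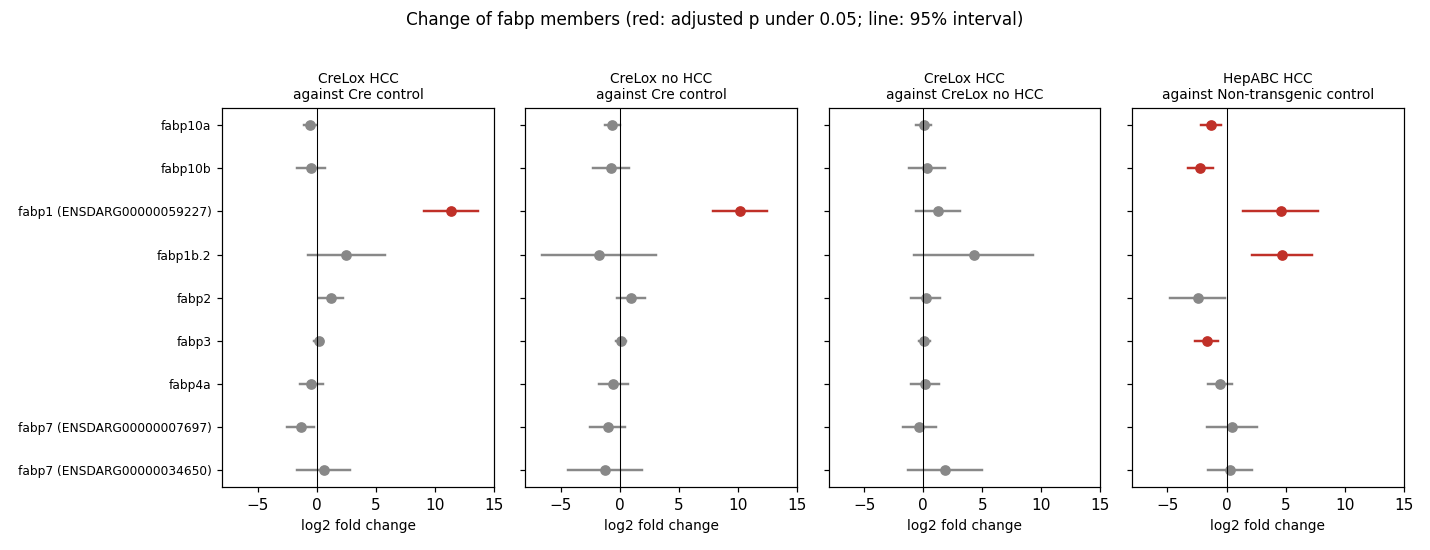
Log2 fold change (x axis) of the 9 tested members (y axis) in the 4 comparisons within an experiment, with 95% intervals as lines and called members in red. Both CreLox against Cre control panels have 1 red member, fabp1 (ENSDARG00000059227), the panel of CreLox HCC against CreLox no HCC has 0, and the HepABC panel has 5.

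The largest change in the family was that of fabp1 (ENSDARG00000059227), which shares its symbol with the main hepatocyte form of mammals. In the Cre controls it was close to absent, at 0.0433 CPM in fish 621, 0.146 in 622, 0.332 in 628 and 0.875 in 630, which are 1, 3, 10 and 19 counts. In CreLox HCC it reached 1215 CPM in fish 604, 951 in 605, 1376 in 623 and 270.3 in 624. In the CreLox fish without HCC it was 634 CPM in 609 and 169.8 in 625. No CreLox fish overlapped a Cre control, and the gap between the nearest fish was from 0.875 to 169.8 CPM.

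In CreLox HCC fabp1 (ENSDARG00000059227) rose by a log2 fold change of 11.40 ± 1.03 (SE, 95% interval 9.12 to 13.69, edgeR adjusted p = 0.00126). In the CreLox fish without HCC it rose by 10.16 ± 1.01 (adjusted p = 0.00554). Because the controls hold 1 to 19 counts, the size of both fold changes is imprecise while the levels in the CreLox fish are not. The rise in the fish without HCC rests on 2 fish, and limma voom gave an adjusted p of 0.0886 for it. CreLox HCC exceeded CreLox without HCC by 1.25 ± 0.84, with a 95% interval of -0.63 to 3.12 (adjusted p = 1.00), so a difference of up to about that upper bound was not resolved with 2 fish in a group. These comparisons share the Cre controls. The vil1 count was 22 or less in all 10 of these fish.

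HepABC HCC also had more fabp1 (ENSDARG00000059227), with a far wider spread. Its level was 1943 CPM in fish 317E5, 832 in 317E6, 132 in 317E10, 95.1 in 317E11 and 38.4 in 317E9. The non-transgenic controls had 64.0 CPM in 317C2, 53.0 in 317C5, 5.12 in 317C8, 3.99 in 317C1 and 0.315 in 317C4. The groups overlapped, since 317E9 lay below 317C2 and 317C5. The log2 fold change was 4.59 ± 1.45 (SE, 95% interval 1.41 to 7.77, adjusted p = 0.0307).

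The controls with the highest fabp1 were the 2 with the highest vil1, and the same held in HepABC HCC for 317E5 and 317E6. The number of fabp1 (ENSDARG00000059227) counts per vil1 count was 0.558 in 317C5 and 2.73 in 317C2. In 317E5 it was 453, in 317E6 381, in 317E10 492 and in 317E11 595. In control 317C8 it was 139 and in 317C4 3, on vil1 counts of 1 and 2, and 317C1 and 317E9 had no vil1 count. The part of enterocyte RNA in these levels was not tested. Without 317C2 and 317C5 the log2 fold change of fabp1 was 7.57 (adjusted p = 0.0158), and without 317C2, 317C5, 317E5 and 317E6 it was 4.80 (adjusted p = 0.0168). The call was lost when 317C1, 317C8, 317E5 or 317E6 was left out alone, with values from 3.44 without 317E5 to 4.45 without 317E6.

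The rise of fabp1 over its own controls was smaller in HepABC HCC than in CreLox HCC, with a difference of -6.81 ± 1.85 on the log2 scale (adjusted p = 0.0251). Mean levels were 953 CPM in CreLox HCC and 608 in HepABC HCC, with overlapping ranges. They were 0.349 CPM in Cre controls and 25.3 in non-transgenic controls, so the control groups lay further apart on the log2 scale. As the Cre controls hold 1 to 19 counts, the size of this difference is imprecise. Without 317C2 and 317C5 this difference was -3.79 and was not called (adjusted p = 0.141), and without all 4 fish with raised vil1 it was -6.61 (adjusted p = 0.0106). It also lost its call under limma voom (adjusted p = 0.174) and without Cre control fish 628 (adjusted p = 0.0577).

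**Figure D3:**
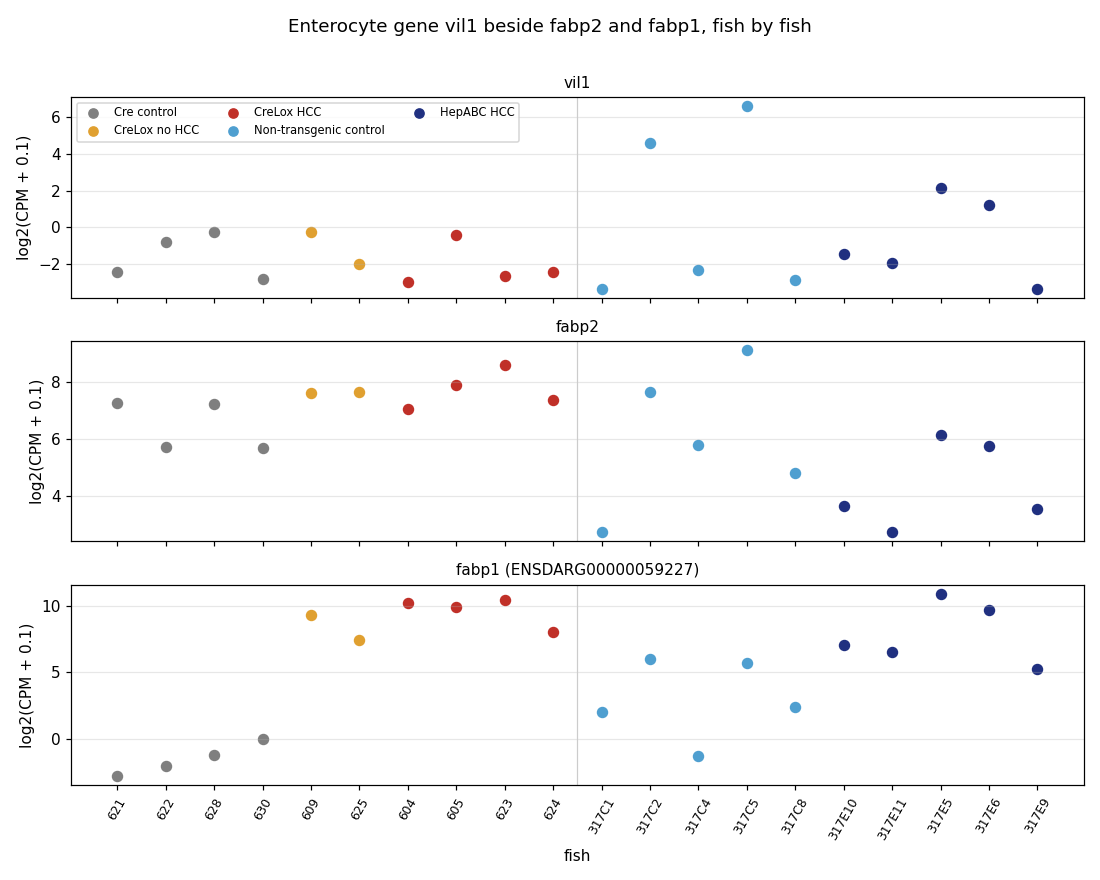
Levels of the enterocyte gene vil1, of fabp2 and of fabp1 (ENSDARG00000059227), as log2(CPM + 0.1) on the y axes, with the 20 fish on the x axis coloured by group. The controls 317C2 and 317C5 are the 2 highest of the non-transgenic controls in all 3 panels, whereas the CreLox fish with fabp1 levels of 169.8 to 1376 CPM have vil1 at 0.731 CPM or less.

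The second fabp1 identifier, ENSDARG00000019357, had 1 count in all 20 libraries, in control 317C5. The third gene of the fabp1 group, fabp1b.2, was low but present mainly in tumors. In HepABC HCC it was at 4.62 CPM in 317E5, 2.84 in 317E6, 1.07 in 317E11, 0.784 in 317E9 and 0.577 in 317E10. In the non-transgenic controls it was at 0 in 4 fish and at 0.399 CPM, or 8 counts, in 317C5. The groups did not overlap, and fabp1b.2 rose by 4.69 ± 1.15 (adjusted p = 0.00955). The size of this change rests on the 8 counts of 317C5, as the other 4 controls were at 0. It was 4.10 to 9.18 with a fish left out and 4.69 to 9.25 under the other alternatives. Where all remaining controls are at 0, its size depends on the small prior count of the fit. The gene stayed called without 317C2 and 317C5 (adjusted p = 0.00811), when all remaining controls were at 0. It also stayed called without all 4 fish with raised vil1 (adjusted p = 0.0121).

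In the CreLox experiment the counts of fabp1b.2 were dominated by single fish. CreLox HCC fish had 6.69 CPM in 623 but 0.528 in 605, 0.379 in 604 and 0.347 in 624. Cre controls had 1.26 CPM in 628, 0.0433 in 621 and 0 in 622 and 630, and the fish without HCC had 0.193 CPM in 625 and 0 in 609. In CreLox HCC the change of 2.51 ± 1.46 on the log2 scale had an adjusted p of 0.325 and was not beyond the spread between fish. Both fabp1b.2 and fabp1 (ENSDARG00000059227) were highest in 623 among the CreLox fish and in 317E5 and 317E6 among the HepABC fish. As the fabp1 genes are similar in sequence and fabp1b.1 and fabp1b.2 lie next to each other, reads shared between them could have been assigned to either or dropped.

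The intestinal form fabp2 was found in livers of every group. Cre controls had 153 CPM in fish 621, 148 in 628, 52.6 in 622 and 51.1 in 630. CreLox HCC had 385 CPM in 623, 240.1 in 605, 164 in 624 and 131 in 604, and the fish without HCC had 195 and 198 CPM. The CreLox HCC and control ranges overlapped, and the log2 fold change of 1.18 ± 0.45 did not pass (adjusted p = 0.153). In these 10 fish fabp2 had 1083 to 12433 counts beside a vil1 count of 1 to 22.

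In the non-transgenic controls fabp2 ranged from 6.50 CPM in 317C1 to 556 in 317C5, with 198 in 317C2, 55.5 in 317C4 and 27.7 in 317C8. HepABC HCC had 69.9 CPM in 317E5, 54.2 in 317E6, 12.4 in 317E10, 11.6 in 317E9 and 6.50 in 317E11. The controls varied 85.4-fold among themselves, and the highest values of each group were in the fish with raised vil1. Its change of -2.45 ± 1.07 on the log2 scale did not reach the threshold (adjusted p = 0.100). DESeq2 called it (adjusted p = 0.0258), as did edgeR without control 317C1 (adjusted p = 0.0475). Without 317C2 and 317C5 the log2 fold change was 0.04 (adjusted p = 0.981), so the direction rested on these 2 controls.

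The bile acid-binding form fabp10a was high in every liver. Cre controls had 26453 CPM in 621, 24288 in 622, 17734 in 628 and 13482 in 630, whereas CreLox HCC fish lay in a narrow range from 12881 to 14273 CPM. The fish without HCC had 15917 and 10499.9 CPM. The log2 fold change in CreLox HCC was -0.59 ± 0.24 (95% interval -1.11 to -0.07), which did not pass (adjusted p = 0.170).

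In HepABC HCC fabp10a fell. Its level was 14257 CPM in 317E9, 9045 in 317E5, 7788 in 317E11, 5204 in 317E10 and 3838 in 317E6, against 30754 in 317C1, 27515 in 317C2, 16636 in 317C4, 14043 in 317C8 and 11919 in 317C5. By these scaled levels only 317E9 reached the range of the controls. As a share of library counts, 317E9 (1.55%), 317E5 (1.26%) and 317E11 (1.12%) lay within the control range of 0.962% to 2.23%. The log2 fold change was -1.33 ± 0.39 (adjusted p = 0.0223), beside a median of -2.43 over the 20 hepatocyte markers. The call was lost without 317C1 (adjusted p = 0.0516), 317C2 (0.0525) or 317E10 (0.0541), without 317C2 and 317C5 together (0.0534), and when libraries were scaled by their totals alone (log2 fold change -0.50, adjusted p = 0.218). The difference from the CreLox HCC change was -0.73 ± 0.49 (adjusted p = 0.355). As fabp10a also marks hepatocytes and drives the transgenes, its level and the number of hepatocytes in a liver cannot be told apart here.

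Its paralog fabp10b was expressed at a few CPM. In HepABC HCC it had 0.701 CPM in 317E10, 0.560 in 317E9, 0.354 in 317E5, 0.228 in 317E11 and 0.182 in 317E6, all below the controls, which had 3.57 in 317C4, 1.82 in 317C2, 1.65 in 317C5, 1.56 in 317C1 and 0.847 in 317C8. As a share of library counts, 317E10 (0.0001005%) and 317E9 (6.10e-05%) lay above control 317C8 (6.05e-05%). In the test fabp10b fell by 2.21 ± 0.49 on the log2 scale (adjusted p = 0.00576). This call held for each fish left out and with libraries scaled by their totals alone (log2 fold change -1.35, adjusted p = 0.0302). It was lost without all 4 fish with raised vil1 (-1.99, adjusted p = 0.0911), which left 3 fish in each group. In CreLox HCC fabp10b did not pass (log2 fold change -0.47 ± 0.54, adjusted p = 0.634), with fish 621 highest of all at 7.49 CPM.

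The heart and muscle form fabp3 was steady in the CreLox experiment. Its level was 687 to 839 CPM in Cre controls, 810.4 to 958 in CreLox HCC, and 941 and 688 in the fish without HCC. The log2 fold change in CreLox HCC was 0.16 ± 0.17, with a 95% interval of -0.21 to 0.53. In HepABC HCC, by contrast, it was 706 CPM in 317E5, 635 in 317E6, 407 in 317E11, 354 in 317E10 and 88.7 in 317E9. The controls had 1654 CPM in 317C4, 1507 in 317C1, 1491 in 317C8, 1225 in 317C5 and 1204 in 317C2. By these scaled levels every HepABC HCC fish lay below every control. As a share of library counts, 317E5 (0.0980%) and 317E6 (0.0922%) lay above control 317C2 (0.0898%).

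In HepABC HCC fabp3 fell by 1.69 ± 0.43 on the log2 scale (adjusted p = 0.0119). It was called with each fish left out in turn and without 317C2 and 317C5 (log2 fold change -1.84, adjusted p = 0.0330). With libraries scaled by their totals alone it was -0.75 (adjusted p = 0.175). That scaling moved the median of all genes to 0.87 and turned a split of 2766 genes higher and 2576 lower into 7955 higher and 854 lower, so fabp3 still lay below the median gene. The change differed between the models by -1.84 ± 0.51 (adjusted p = 0.0268), and this call was lost with libraries scaled by their totals alone (-1.18, adjusted p = 0.137) and without Cre control 628 (adjusted p = 0.0514) or CreLox HCC fish 623 (0.0510). The 20 identifiers of muscle and heart markers summed to 4.42 to 22.2 CPM in HepABC HCC and 17.8 to 34.0 in non-transgenic controls, and their part in the fabp3 levels was not tested.

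The brain form fabp7 (ENSDARG00000007697) varied widely between fish of a group. Cre controls had 254 CPM in 630, 176 in 628, 75.2 in 622 and 53.8 in 621, and CreLox HCC fish had 70.8 in 605 and 46.7 to 49.7 in the other 3. The log2 fold change was -1.37 ± 0.52 (adjusted p = 0.152), with overlapping groups. HepABC HCC ranged from 123 CPM in 317E11 to 0.0840 in 317E9, where 3 counts were found. The controls ranged from 11.9 to 66.5 CPM, and the log2 fold change was 0.47 ± 0.98 (adjusted p = 0.747). Summed glia and neuron markers were at 19.6 to 45.5 CPM in the CreLox experiment, 29.3 to 36.3 in non-transgenic controls and 38.4 to 75.5 in HepABC HCC, and their part in the fabp7 levels was not tested. The other fabp7 identifier, ENSDARG00000034650, was at 2.53 CPM or less and was not called in any comparison.

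The adipocyte form fabp4a was at 2.13 to 10.7 CPM in the CreLox experiment and at 6.26 to 39.5 CPM in the HepABC experiment, and it was not called in any comparison. Summed adipocyte markers, mostly the lipase gene lpl, were at 438 to 4085 CPM. The log2 fold change of fabp4a was -0.44 ± 0.44 in CreLox HCC and -0.58 ± 0.46 in HepABC HCC. Its paralog fabp4b was too rare to test. It had 7 counts in 317E11, 3 in 317E6, 2 in 317E5 and 1 in 317E9 and 0 in the remaining 16 fish, so every count came from HepABC HCC.

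The ileal bile acid carrier fabp6 was nearly absent, with 30 counts in Cre control 621, 27 in HepABC HCC fish 317E10 and at most 2 in each other fish. It was too rare to test within either experiment. In the fit of all 20 libraries the difference between the models was called (8.20 ± 2.54, adjusted p = 0.0441), but this rests on these 2 fish. Without either of them fabp6 had too few counts to be tested. The 2 fish did not have raised vil1, at 2 counts in 621 and 13 in 317E10. Without the 2 apolipoprotein genes, the enterocyte list summed to 330.2 CPM in 317E10, above 317E6 (218) and 317E5 (158). This sum was 42.1 CPM in 621. Controls 317C5 (2094) and 317C2 (615) had higher sums but at most 2 fabp6 counts each. The enterocyte gene slc10a2 had 12 counts in 317E10, its highest in any fish, and 3 in 621. The part of enterocyte RNA in the fabp6 counts was not tested.

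Fish 317E9 stood at an end of its group for several members. It had the highest fabp10a of HepABC HCC and the lowest fabp1 (ENSDARG00000059227), fabp3, fabp4a and fabp7 (ENSDARG00000007697). Leaving it out kept fabp1, fabp3, fabp10a, fabp10b and fabp1b.2 called.

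For fabp1 (ENSDARG00000059227) and fabp1b.2, which were called with at least a 4-fold change, the genes with the nearest pattern were found over all 20 fish, as the smallest root mean square distance between centred log2(CPM + 0.1) values. For fabp1 these were cldn15la (distance 2.02), a claudin of epithelial tight junctions, and iyd (2.10), which recovers iodide from iodotyrosines. The median was 4.57 over 17579 candidates, and the smallest distances lie below it by construction. Centred values of fabp1 itself had a root mean square of 4.52. The level of cldn15la was 0.0663 to 1.31 CPM in Cre controls, 41.2 to 163 in CreLox HCC, 49.9 to 106 in CreLox without HCC, 0.105 to 18.4 in non-transgenic controls and 181 to 340.5 in HepABC HCC. The level of iyd was 0.194 CPM or less in Cre controls and 23.6 to 86.3 in CreLox HCC, and 0.749 or less in non-transgenic controls and 7.17 to 39.0 in HepABC HCC. Like fabp1, both were higher in every CreLox fish than in any Cre control. Both genes were picked as nearest to fabp1 over these same fish, so this split follows in part from how they were chosen. Among the non-transgenic controls cldn15la was highest in 317C5 and 317C2, the fish with the highest vil1. Its centred log2 levels there were 0.582 and -0.780, against -5.41 or lower in the other non-transgenic controls. The list of biliary markers used here includes cldn15la, so its own level is part of the sums of these markers. These markers summed to 884 to 1441 CPM in Cre controls, 1475 to 3196 in CreLox HCC and 1605 to 2206 in CreLox without HCC. They summed to 902 to 2191 CPM in the non-transgenic controls and 4426 to 7777 in HepABC HCC. The part of biliary cells or of enterocytes in the level of cldn15la or that of fabp1 was not tested.

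For fabp1b.2 the nearest were si:dkey-183n20.15 at 1.18 and btr33 at 1.24, against a median of 2.04. Centred values of fabp1b.2 itself had a root mean square of 1.95, so much of its spread between fish was not shared. The level of si:dkey-183n20.15 was 0.260 to 4.58 CPM in Cre controls and 0.868 to 8.30 in CreLox HCC, which overlapped. It was 0.260 to 2.70 CPM in non-transgenic controls and 3.92 to 9.13 in HepABC HCC. The level of btr33 was 0.216 to 0.597 CPM in Cre controls, 2.21 to 4.89 in CreLox HCC and 0.386 to 2.02 in CreLox without HCC. It was 0.221 to 1.20 CPM in non-transgenic controls and 4.25 to 8.58 in HepABC HCC. Both genes were picked as nearest to fabp1b.2 over these same fish, so their levels follow in part from how they were chosen.

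**Figure D4:**
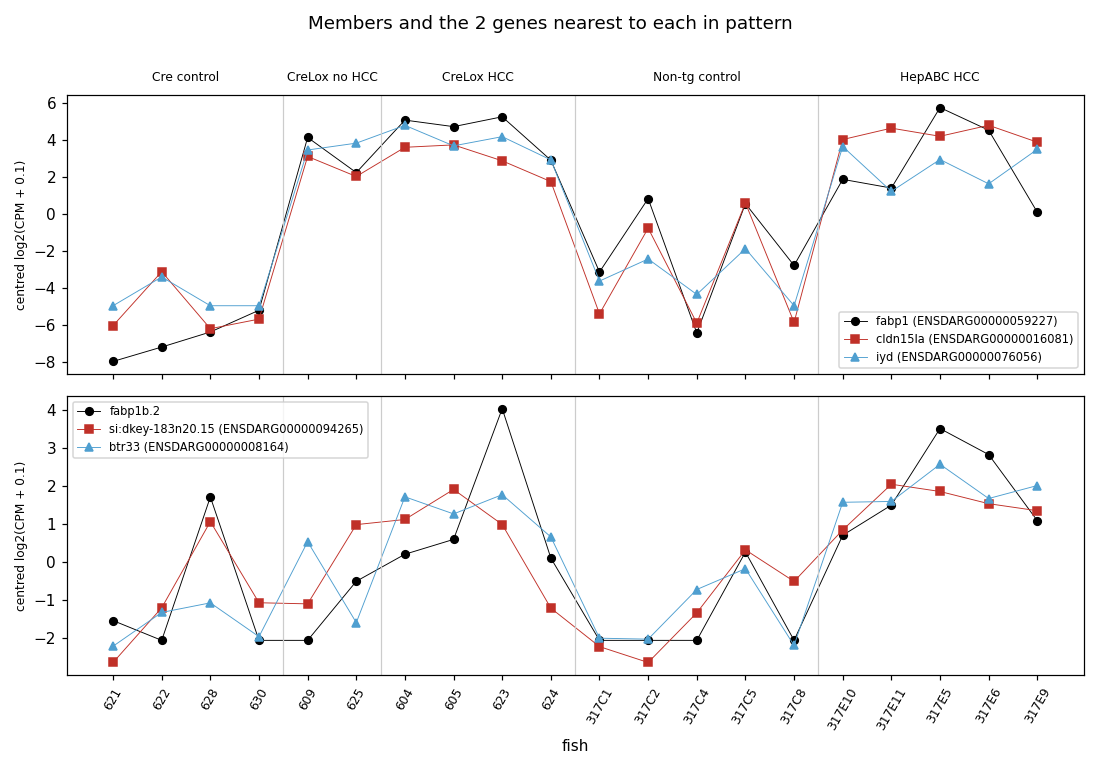
Centred log2(CPM + 0.1) (y axis) of fabp1 (ENSDARG00000059227) and fabp1b.2 and of the 2 genes nearest to each, over the 20 fish (x axis) ordered by group. The lines of fabp1 and cldn15la lie at a distance of 2.02 from each other, those of fabp1b.2 and si:dkey-183n20.15 at 1.18.

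Other genes of fatty acid handling were counted from 5 lists. Over all genes, edgeR called 4.2% in CreLox HCC, 33.7% in HepABC HCC and 11.3% for the difference between the models. The counts of every list are to be read beside these shares. Among 16 tested genes of fatty acid uptake and activation, 3 fell and 0 rose in CreLox HCC, with a median log2 fold change of -0.32 beside -0.05 over all genes. DESeq2 called 4 higher and 3 lower of the 17 it tested. The largest change of the list in CreLox HCC was upward but not called by edgeR, acsl5 (10.33 ± 2.65, adjusted p = 0.0769). Also upward and not called was cd36 (2.40 ± 0.71, adjusted p = 0.0851). Those called by edgeR were slc27a6 (-2.74 ± 0.55, adjusted p = 0.0247), a fatty acid transporter, and the acyl-CoA synthetases acsl4 (ENSDARG00000010752, -2.35 ± 0.48) and acsl3 (-1.42 ± 0.31). The other acsl4 identifier, ENSDARG00000004078, was not called in CreLox HCC (0.82 ± 0.25, adjusted p = 0.0914). In HepABC HCC 4 fell and 2 rose, a share near the 33.7% called over all genes (median -0.61 beside 0.00), and for 0 of 16 did the change differ between the models by edgeR, with 3 at an unadjusted p under 0.05. The called genes included slc27a6 at -4.33 ± 0.70 (adjusted p = 0.00110) and acsbg2, another acyl-CoA synthetase, at 2.45 ± 0.66. The other gene that rose was acsl4 (ENSDARG00000004078), at 1.41 ± 0.37 (adjusted p = 0.0132). In HepABC HCC acsl4 (ENSDARG00000010752) was not called (-0.95 ± 0.61, adjusted p = 0.255). Another list held lipid-sensing nuclear receptors and cofactors, through which fatty acid binding proteins pass ligands in mammals. Of 19 tested, 1 rose and 1 fell in CreLox HCC, and 0 rose and 4 fell in HepABC HCC. In CreLox HCC DESeq2 called 2 higher and 3 lower of 19, and limma voom 1 higher and 2 lower. The gene ppara (ENSDARG00000054323) fell in CreLox HCC (-2.41 ± 0.49, adjusted p = 0.0267) and in HepABC HCC (-1.35 ± 0.48, adjusted p = 0.0495). On the same list pparaa was not called in CreLox HCC (0.14 ± 0.25, adjusted p = 0.772) or HepABC HCC (-0.75 ± 0.39, adjusted p = 0.164). The receptor gene hnf4b rose in CreLox HCC (1.57 ± 0.28, adjusted p = 0.0179), and it was the 1 gene of this list whose change differed between the models (-2.23 ± 0.44, adjusted p = 0.00478).

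The enzymes of fatty acid oxidation, which use the delivered fatty acids, had calls in HepABC HCC but not in CreLox HCC. None of the 26 tested passed in CreLox HCC with edgeR, where 2 had an unadjusted p under 0.05 and 1 passed, upward, with DESeq2 and with limma voom (median -0.01). In HepABC HCC 17 fell and 1 rose (median -0.99), a share above the 33.7% called over all genes. The change of 11 differed between the models, all lower in HepABC HCC, a share above the 11.3% over all genes. Counts of every list in HepABC HCC and for this difference are given for the main edgeR fit alone. With libraries scaled by their totals alone, the median of all genes moved to 0.87 in HepABC HCC and 0.63 for this difference. Of the cpt1 genes, cpt1a was the 1 that rose in HepABC HCC (1.28 ± 0.36, adjusted p = 0.0191). There cpt1ab was not called (-0.80 ± 0.32, adjusted p = 0.0788). The largest falls were in cpt1b (-3.05 ± 0.83), which loads fatty acids onto carnitine, and acads (-2.49 ± 0.25), the short-chain dehydrogenase. Next were the falls of the peroxisomal enzymes ehhadh (-2.003 ± 0.30) and acox3 (-1.86 ± 0.23). These falls ran beside those of 18 of 20 hepatocyte markers, and the part of hepatocyte content in them was not tested. Of the genes of lipid droplets 1 of 14 fell in CreLox HCC by edgeR, fitm2 (-1.26 ± 0.25). There DESeq2 called 2 higher and 2 lower of the 15 it tested, and limma voom 0 higher and 1 lower of 14. In HepABC HCC 6 of 15 fell, again near the 33.7% over all genes. Among them were dgat1 (ENSDARG00000103503, -2.75 ± 0.47), which makes triglycerides, and cidec (-1.96 ± 0.36), a droplet protein. The retinoid carriers, relatives of the fabp genes with the same fold, fell for 2 of 5 in CreLox HCC and 4 of 6 in HepABC HCC. Among these were rbp7a in CreLox HCC (-5.34 ± 1.09) and crabp2 (ENSDARG00000030449) in both (-2.75 ± 0.65 and -3.54 ± 0.44). Of 7 retinoid carriers tested for the difference between the models, 1 was called higher and 2 lower in HepABC HCC. The higher 1 was rbp7a (6.53 ± 1.61, adjusted p = 0.0158), which was not among the genes called in HepABC HCC. In CreLox zebrafish without HCC none of the 5 lists had a gene called by edgeR, with unadjusted p under 0.05 for 5 of 16, 2 of 19, 2 of 26, 2 of 14 and 1 of 5 genes in the order above. In that comparison limma voom called 0 genes of the lists, and DESeq2 called 2 of uptake and activation and 2 nuclear receptors. With its 2 fish, acsl4 (ENSDARG00000010752) was at -3.60 ± 0.70 (edgeR adjusted p = 0.0885) and hnf4b at 1.66 ± 0.32 (0.0867), beside -2.35 and 1.57 in CreLox HCC. In the same direction but smaller than in CreLox HCC were acsl3 (-1.22 ± 0.39), slc27a6 (-1.74 ± 0.68) and ppara (-1.19 ± 0.60). Between CreLox zebrafish with and without HCC no gene of the 5 lists was called by edgeR, DESeq2 or limma voom.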

How the data were processed

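The authors sequenced stranded libraries of poly-A RNA, aligned reads to GRCz11 with STAR 2.6.1b and Ensembl annotation, and counted genes with featureCounts 1.6.3. The deposited values are whole-number counts per gene, not normalised, in 1 table for each experiment. The strand setting of the counting is not given in the sources used here, so genes that overlap on opposite strands may share reads. The submitters' processing notes also name DESeq2 1.22.2.

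Symbols came from the gene name table (29201 identifiers matched). List names were matched by symbol, ignoring case, and otherwise without a trailing number or a/b suffix. No sequences are printed. The members and gene lists were chosen with earlier results of these data known.

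Counts were tested in R 4.3.3 with edgeR 4.0.16 (glmQLFit, glmQLFTest, TMM, filterByExpr), fitting 10 CreLox experiment libraries, 10 HepABC libraries, or all 20 for the difference between the models. P-values were two-sided and adjusted by Benjamini-Hochberg over all genes tested, with 0.05 as threshold. Errors of log2 fold changes are SE. Per-fish values are TMM-scaled CPM. Nearest genes were sought for members called at an absolute log2 fold change of 2 or more (those of fabp10b are not reported here), and up to 4 called genes of a list were named by size. All 4 CreLox HCC libraries in the labels were used, whereas the study's methods give 3. The scripts were tested on simulated data. Alternatives used DESeq2 1.42.0, limma 3.58.1, other scalings, no count filter, the compared groups alone, robust fits, and each fish left out. Counting error limits members with few counts. At the lowest depth 1 CPM is about 20 counts.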

Additional observations from a re-analysis of the deposited data

Results flagged for a closer look

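Single fish stood far from the rest of their group for 9 of the 40 sets of member and group tested. Chance gives about 1 in 20 for the test used (Dixon's ratio) only where values are normally distributed, which CPM of genes with few counts need not be. So 9 of 40 is not to be read as an excess. The rate also fails where all other fish of the group are at 0, since any count then stands apart. This was so for fabp6 in fish 605 and 317C5 and for fabp1b.2 in fish 317C5. In CreLox HCC fish 605 stood apart for fabp7 (ENSDARG00000007697) at 70.8 CPM and for fabp6 at 0.0311 CPM, which is 1 count. Fish 623 did so for fabp7 (ENSDARG00000034650) at 1.39 CPM and for fabp1b.2 at 6.69 CPM. Among Cre controls fish 628 stood apart for fabp1b.2 at 1.26 CPM and fish 621 for fabp6 at 1.299 CPM. Among non-transgenic controls fish 317C5 was the single fish with counts for fabp1b.2, at 0.399 CPM, and for fabp6, at 0.0499 CPM. In HepABC HCC fish 317E10 stood apart for fabp6 at 0.557 CPM.

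The change in HCC differed between the models for fabp1 (ENSDARG00000059227), by -6.81 on the log2 scale, for fabp3, by -1.84, and for fabp6, by 8.198.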

How the results depend on the processing

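No paired analysis was possible because no fish is shared between groups. The count of called members was 1 in CreLox HCC and 0 between the CreLox groups under every alternative. For CreLox without HCC it was 1 except under limma voom, with 0. For HepABC HCC it was 5, 4 to 5 with a fish left out, 3 with library size alone and 6 under DESeq2. It was 3 without 317C2, 317C5, 317E5 and 317E6 and 4 without 317C2 and 317C5 (both chosen after seeing the data). For the difference between the models it was 3, 1 to 4 with a fish left out (1 without Cre control 628 or CreLox HCC 623), 1 under limma voom and 1 without 317C2 and 317C5. The HepABC log2 fold change of fabp2 turned from -2.45 to 0.0384 without those 2 controls. With a fish left out, fabp1b.2 ranged from -6.21 to 2.39 in CreLox without HCC and from -2.01 to 6.38 for the difference between the models, changing sign without Cre control 628. Of 206 values of called members under alternatives, 171 stayed called, 35 lost the call and 0 changed direction. Leaving out 1 of the 2 CreLox fish without HCC assumes that the other varies like the other groups. Library size alone also moved the calls over all genes in CreLox HCC from 403 higher and 304 lower to 854 and 188, and those of the difference between the models from 1121 and 994 to 3044 and 438. DESeq2 called 2049 genes in CreLox HCC against 707 by edgeR, 338 against 53 without HCC and 16 against 1 between the CreLox groups.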
